A study of Rattus norvegicus with 12 samples.

Results

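Rbm3 and Cirbp encode the best known cold-inducible RNA-binding proteins of mammals, and their messenger RNAs were followed in hippocampus, which supports memory of places and events. The members were the rows whose gene symbol is Rbm3 (ENSRNOG00000005387) or Cirbp (ENSRNOG00000015999), which gave 2 of the 23760 genes in each library, 1 row each. RNA sequencing covered 12 rat (Rattus norvegicus) libraries, 6 labelled NC and 6 labelled AS3h, in a series about cognitive impairment after prolonged underwater operation. The labels do not expand NC or AS3h, and give no strain, sex, age, treatment, hour of sampling or body temperature. Whether each library is a different animal is not stated in the labels, and the p-values below then cover only the spread among these libraries, which may be technical.

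RBM3 and CIRBP are small proteins with a single RNA recognition motif and a glycine-rich tail. Mammalian cells make more of both when they are cooled mildly, and cultured human cells also do so when oxygen is low. In mouse brain RBM3 is known for preserving synapses and neurons after cooling. In mouse liver and cultured cells CIRBP follows the daily rhythm of body temperature and binds the mRNA of the core clock gene Clock.

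The promoters of both genes are shown with the matches to short elements through which regulators of genes are known to act. The windows run from 250 bases before to 50 bases after the annotated start of each gene in RefSeq, build GRCr8, and were found for both symbols. The Rbm3 window is chrX:17020655-17020954 on the plus strand and the Cirbp window is chr7:10189426-10189725 on the minus strand, each written 5′ to 3′ along the gene. Capitals mark every match, on either strand, to the mild cold response element TCCCCGCC, the GC box GGGCGG, the CCAAT box CCAAT and TGACG, the core of the cyclic AMP response element.
Rbm3: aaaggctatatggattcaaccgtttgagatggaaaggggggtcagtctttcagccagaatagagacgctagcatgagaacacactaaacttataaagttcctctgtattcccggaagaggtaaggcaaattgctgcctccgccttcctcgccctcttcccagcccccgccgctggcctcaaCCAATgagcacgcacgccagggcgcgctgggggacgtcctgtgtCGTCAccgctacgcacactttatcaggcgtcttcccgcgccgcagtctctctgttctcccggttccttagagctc
Cirbp: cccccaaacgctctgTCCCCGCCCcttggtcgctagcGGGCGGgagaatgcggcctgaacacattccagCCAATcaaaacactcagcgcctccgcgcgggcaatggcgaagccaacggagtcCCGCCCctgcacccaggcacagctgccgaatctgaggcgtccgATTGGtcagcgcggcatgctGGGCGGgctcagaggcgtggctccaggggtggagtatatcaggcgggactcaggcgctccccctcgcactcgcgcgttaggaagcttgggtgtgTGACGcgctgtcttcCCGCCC

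The mild cold response element, described in the Cirbp promoter as a site of the transcription factor Sp1, occurred once in the Cirbp window, at -235 to -228 from the start, where it overlaps a GC box at -232 to -227. These letters were not in the Rbm3 window, and 4.79% of 33469 rat promoters of the same length held them. The Cirbp window held 5 GC boxes and the Rbm3 window 0, against 33.1% of all promoters with at least 1. Both windows held CCAAT boxes, 2 in Cirbp and 1 in Rbm3 (37.5% of promoters), and both held 1 TGACG (21.2%), at -25 to -21 in Rbm3 and at 30 to 34 in Cirbp. Neither held the full site TGACGTCA (1.83%), the heat shock element pair GAANNTTC (8.59%) or the E-box CACGTG (6.42%). The G and C content was 56.3% in Rbm3 and 67% in Cirbp, against a median of 51.7%. Matches describe the letters only, and binding was not measured.

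The libraries held 29615243 to 38106489 reads assigned to genes. All 8 neuronal markers of the hippocampus were detected in every library, among them the vesicular glutamate transporter gene Slc17a7 at 47418 to 70933 normalised reads. Choroid plexus markers stood apart in AS3h 5 (mean log2 level 10.34). AS3h 4 (7.24) and AS3h 2 (6.05) were also above every NC library (at most 5.56), by far less. The marker Ttr, for the carrier protein transthyretin, reached 61060 normalised reads in AS3h against at most 811 in NC. Blood markers were also higher in AS3h, and both are set beside the members below. Microglial and astrocyte marker means were lower in AS3h by 0.36 and 0.15 on the log2 scale (exact permutation p = 0.00649 and 0.013, adjusted p = 0.0519 for each over 8 lists). Of single markers Slc17a7 rose (log2 fold change 0.27; limma, adjusted p = 0.0318), and the microglial receptor gene Cx3cr1 and the endothelial receptor gene Flt1 fell (-0.55 and -0.27, adjusted p = 0.00883 and 0.0378). The other neuronal markers did not pass, from -1.12 (Zbtb20) to 0.17 (Grik4). The neuronal marker mean differed by -0.13, AS3h minus NC (exact permutation p = 0.19). Of the other endothelial markers, Kdr was at 0.19 and Cldn5, at 0 in 6 libraries, at -2.79 (adjusted p = 0.594 and 0.466). The part of these shifts in the results below was not tested.

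Rbm3 mRNA was higher in every AS3h library than in any NC library. In normalised reads, the deposited scale in which each library's reads are divided by 1 library factor, Rbm3 had a lowest value of 2700, a median of 3327 and a highest value of 3436 in NC. In AS3h the lowest value was 3886, the median 4115 and the highest 5003. The groups did not overlap, and AS3h 1 and AS3h 2 were clearly higher than the other 4 AS3h libraries, while NC 4 was the lowest of all 12. The group means were 3224 ± 271 in NC and 4353 ± 492 in AS3h (SD, n = 6 each). Rbm3 rose 1.35-fold, with a log2 fold change of 0.43 ± 0.076 (SE) and a 95% interval of 0.27 to 0.59 (limma, Benjamini-Hochberg adjusted p = 0.00321). Of the 19050 genes tested, 9.26% passed at an adjusted p under 0.05 and 5.04% were higher in AS3h, and in 3.01% all 6 AS3h libraries lay above all 6 NC libraries. In bulk tissue, more cells that contain a transcript and more transcript per cell cannot be told apart.

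Cirbp mRNA moved the same way by a smaller amount and did not pass the test. In NC its lowest value was 1320 normalised reads, its median 1493 and its highest 1575. In AS3h the lowest was 1366, the median 1714 and the highest 2111. The groups overlapped through a single library: 5 of 6 AS3h libraries lay above every NC library, and AS3h 3 was lower than all NC libraries except NC 3. The share of all genes tested with 5 of 6 libraries apart was not taken. The means were 1480 ± 94.9 in NC and 1728 ± 247 in AS3h (SD, n = 6 each). The log2 fold change was 0.21 ± 0.085 (SE), a ratio of 1.16 with a 95% interval of 1.02 to 1.31 (limma, unadjusted p = 0.024, Benjamini-Hochberg adjusted p = 0.132). Without AS3h 3 the log2 fold change of Cirbp was 0.28 and the adjusted p 0.0276, so the call of Cirbp turned on that library. Its size also depended on AS3h 1, the highest library, without which it was 0.15 (limma, adjusted p = 0.232).

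**Figure D1:**
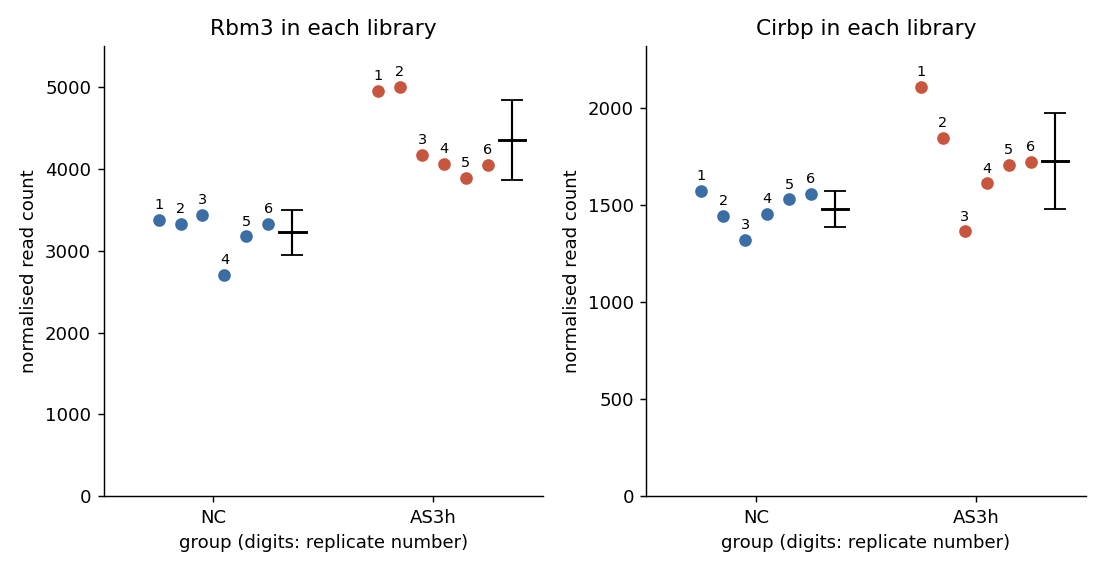
Normalised read counts of Rbm3 (left) and Cirbp (right) in each of 6 NC (blue) and 6 AS3h (red) libraries, with the replicate number above each point and the mean ± SD as a black bar beside each group. All AS3h points for Rbm3 lie above all NC points, from 3886 upward against at most 3436, whereas AS3h 3 lies inside the NC range for Cirbp.

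Both genes were well counted, so reads set little of the spread. Rbm3 had 2978 to 5189 reads a library and Cirbp 1257 to 2100, which would give counting errors near 1.59% and 2.43%. The coefficients of variation between libraries were 8.4% in NC and 11.3% in AS3h for Rbm3, and 6.41% and 14.3% for Cirbp. Both varied more than most genes of like level: 81% of the 1669 genes within 1.5-fold of the mean level of Rbm3, and 78.3% of the 2987 genes around Cirbp, had a smaller residual SD. Among the 6069 genes with a mean of at least 1000 normalised reads, 71 (1.17%) had a larger log2 fold change than Rbm3, and 504 (8.3%) a larger one than Cirbp. The median absolute log2 fold change of those 6069 genes was 0.1.

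The shift of Rbm3 exceeded that of Cirbp by a small margin. The difference between the log2 levels of Rbm3 and Cirbp within a library does not depend on the library factor, and it was 1.12 ± 0.16 in NC and 1.34 ± 0.16 in AS3h (SD, n = 6 each). It was larger in AS3h by 0.22 ± 0.093 (SE; exact permutation p = 0.0476, two-sided; the smallest p that 924 splits allow is 0.00216). The groups overlapped widely, from 0.89 to 1.38 in NC and from 1.19 to 1.61 in AS3h, and 2 of the 6 AS3h libraries lay above all NC libraries. Leaving out single libraries gave exact permutation p values of 0.00866 to 0.0952, over 0.05 in the absence of NC 1, NC 2, NC 4, NC 5, NC 6, AS3h 2, AS3h 3 or AS3h 4.

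Rbm3 and Cirbp did not rank the libraries of a group alike. In AS3h, AS3h 1 and AS3h 2 were the highest for both genes, but AS3h 3 was the third highest for Rbm3 and the lowest for Cirbp. In NC, NC 3 was the highest for Rbm3 and the lowest for Cirbp. The correlation within NC was r = -0.04 (exact permutation p = 0.961, n = 6) with Spearman's rho at -0.2 (exact permutation p = 0.714). Within AS3h r was 0.65 (exact permutation p = 0.172, n = 6) with rho at 0.43 (exact permutation p = 0.419). With the 2 libraries farthest from the Rbm3 median left out, r was -0.66 in NC and -0.79 in AS3h (n = 4 each, exact permutation p = 0.417 and 0.25). The positive value in AS3h thus rests on AS3h 1 and AS3h 2, and neither negative value passed. In a family of 10 correlations none passed, with adjusted p values of 0.961 and 0.431 for these 2.

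**Figure D2:**
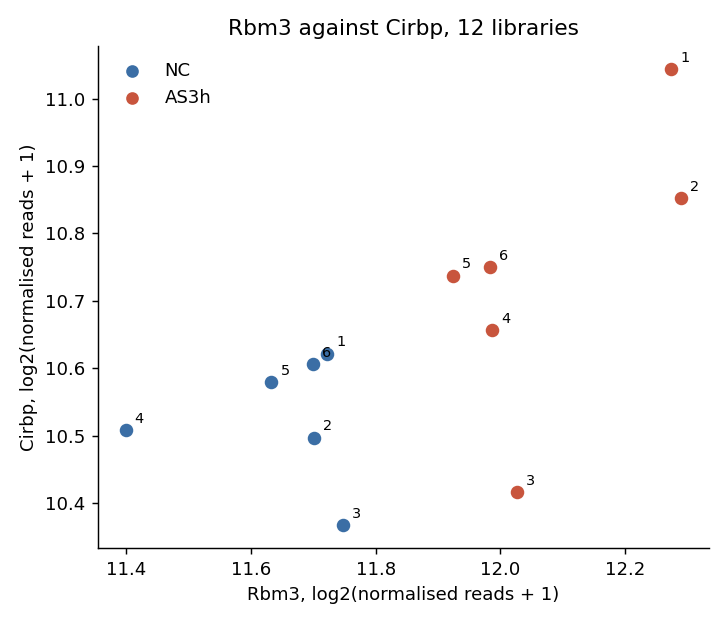
Level of Cirbp (vertical, log2 of normalised reads plus 1) against that of Rbm3 (horizontal, same scale) in 12 libraries, NC in blue and AS3h in red, with replicate numbers. The groups separate along the Rbm3 axis, between 11.75 and 11.92, and not along the Cirbp axis, where AS3h 3 (10.42) lies among the NC libraries.

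Blood markers were highest in the same AS3h libraries as both genes. The mean log2 level of 6 blood rows, covering 5 of 11 listed symbols that were found (the haemoglobin genes Hba-a2, Hba-a3 and Hbb, the haem synthesis enzyme gene Alas2 and the red cell anion exchanger gene Slc4a1), was 8.94 ± 0.48 in NC and 9.78 ± 0.67 in AS3h (SD over 6 libraries a group; exact permutation p = 0.0411, two-sided; adjusted p = 0.11 over 8 marker lists). Their summed level ran from 9618 to 23389 normalised reads in NC and from 12472 to 39341 in AS3h, none of the 6 rows passed the test on its own, and no row was at 0 in any library. AS3h 1 and AS3h 2, the highest for Rbm3 and Cirbp, also had the highest blood means, 10.21 and 10.62. AS3h 6 had a blood mean nearly as high, 10.09, but ranked 5th of the libraries for Rbm3 and 3rd for Cirbp. Within AS3h the blood mean had r = 0.75 with Rbm3 (exact permutation p = 0.0722, n = 6; rho 0.77, exact permutation p = 0.103) and r = 0.69 with Cirbp (exact permutation p = 0.117; rho 0.77, exact permutation p = 0.103). Within NC the values were 0.03 for Rbm3 and -0.66 for Cirbp (exact permutation p = 0.925 and 0.219, n = 6). With the 2 libraries farthest from the blood median left out, r was 0.81 and 0.55 in AS3h, and -0.55 and -0.56 in NC (n = 4 each). None passed over the 10 correlations, the adjusted p values being at least 0.389.

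With the blood mean in the model, the log2 fold change of Rbm3 was 0.33 ± 0.09 (limma, unadjusted p = 0.00244, adjusted p = 0.066) and that of Cirbp 0.13 ± 0.11 (adjusted p = 0.542). With both blood and choroid plexus means it was 0.41 ± 0.11 for Rbm3 (unadjusted p = 0.00268, adjusted p = 0.142) and 0.13 ± 0.14 for Cirbp (adjusted p = 0.705). In these fits 499 and 44 of 19050 genes passed, against 1764 with the group alone. The part of blood in either result was not tested further.

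Choroid plexus markers were higher on average in AS3h, as both genes were, but their correlations with the genes inside the groups were negative and did not pass. Over 9 tested rows of 10 listed genes the mean log2 level was 4.36 ± 0.74 in NC and 6.15 ± 2.39 in AS3h (exact permutation p = 0.0909, two-sided, adjusted p = 0.182). Their sum ran from 227 to 1277 normalised reads in NC and from 356 to 69954 in AS3h, no row passed, and Sostdc1, Otx2 and Prlr were at 0 in some libraries. AS3h 5, the highest by far in these markers, was the lowest AS3h library for Rbm3. Within AS3h their mean had r = -0.47 with Rbm3 and -0.16 with Cirbp, and within NC -0.79 and -0.18 (exact permutation p = 0.325, 0.714, 0.111 and 0.631, n = 6 each; rho -0.26, -0.37, -0.71 and -0.31, exact permutation p = 0.658, 0.497, 0.136 and 0.564). With the 2 libraries farthest from the marker median left out, r was 0.43 and -0.21 in AS3h and -0.46 and 0.07 in NC (n = 4 each). Without AS3h 4 and AS3h 5 Rbm3 had a log2 fold change of 0.49 (limma, adjusted p = 0.00611) and Cirbp of 0.24 (adjusted p = 0.207).

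**Figure D3:**
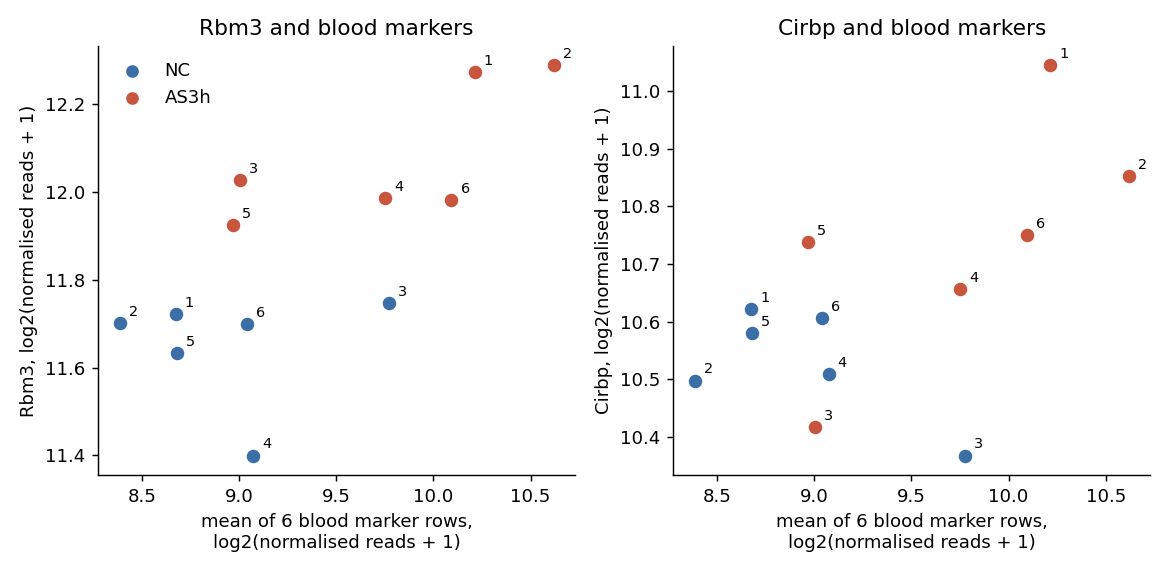
Levels of Rbm3 (left) and Cirbp (right) against the mean level of 6 blood marker rows in 12 libraries, all on the log2 scale, NC in blue and AS3h in red, with replicate numbers. AS3h 3 and AS3h 5, with the lowest blood means of the AS3h group, lie above every NC library for Rbm3, and AS3h 3 does not for Cirbp.

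Rbm3 kept its direction in all 25 other settings, at log2 fold changes between 0.33 and 0.50, and passed in all of them except those with the blood mean as a covariate. Cirbp also stayed above 0 in all 25 settings, at 0.13 to 0.28, and passed without AS3h 3 only.

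**Figure D4:**
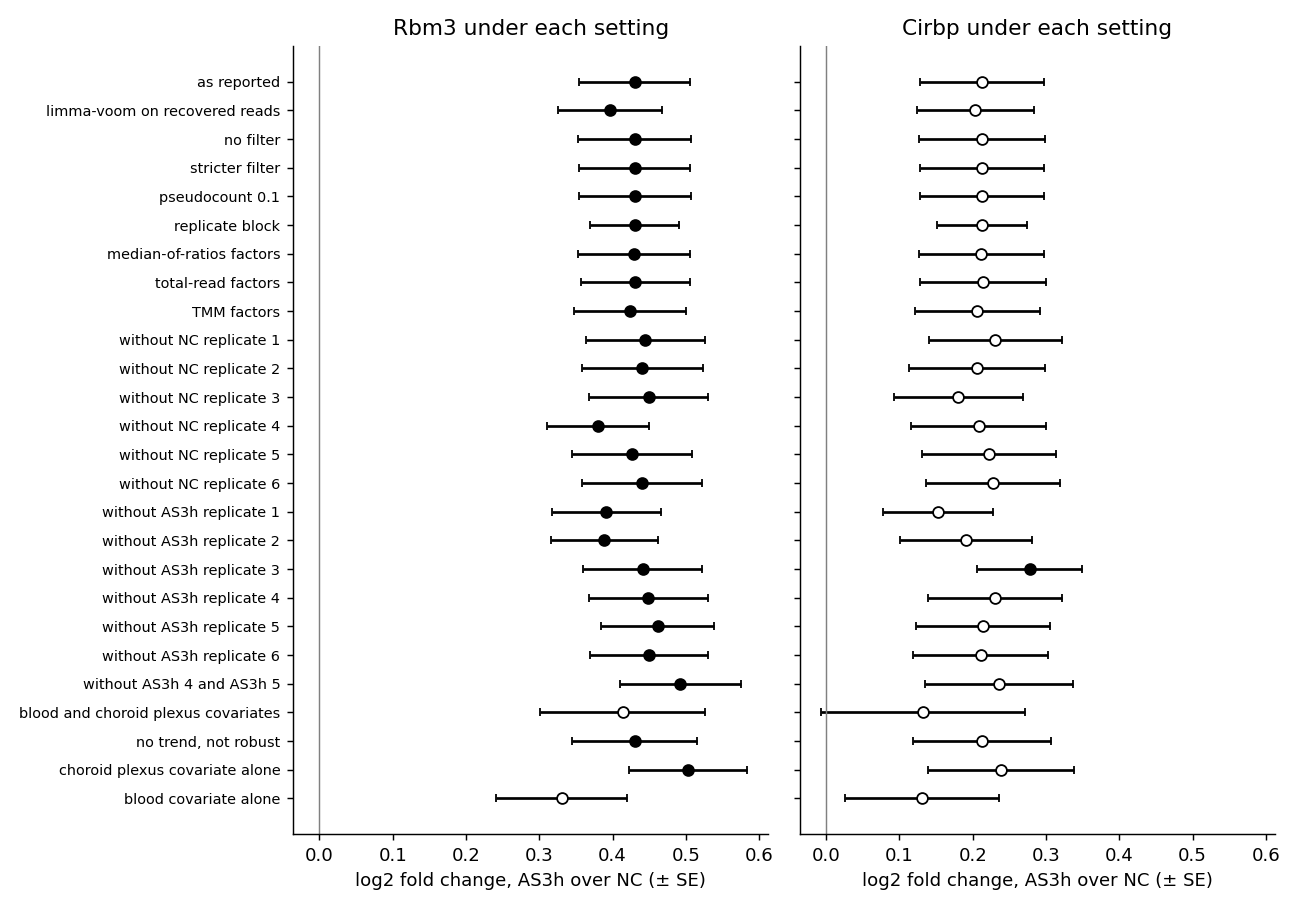
Log2 fold change of Rbm3 (left) and Cirbp (right), AS3h over NC, with its standard error, as reported and under 25 other settings of the fit. Filled points have an adjusted p under 0.05. Rbm3 is filled in all but the 2 fits that hold the blood mean, and Cirbp only without AS3h replicate 3.

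Other proteins named for cold did not move as a class. Of the closest relatives with a glycine-rich tail, Rbmx and Rbmxl1, which act in splicing, neither passed, at log2 fold changes of -0.10 ± 0.059 and 0.00925 ± 0.061 (limma, adjusted p = 0.302 and 0.951). The 2 have near-identical sequences, so their reads may be shared, and Rbmxl2 was not analysed here. Of 7 genes whose proteins carry a cold shock domain, 1 rose, 0 fell and 6 did not pass. This domain is an ancient nucleic acid binding fold shared with bacteria. Over all genes tested 5.04% rose and 4.22% fell. The median log2 fold change of the 7 was 0.00705, against -0.00428 over all genes tested. Ybx3, a translational repressor and regulator of mRNA stability, was the one that rose, from 1367 to 1659 normalised reads over the NC libraries (median 1414) to 1658 to 1998 in AS3h (median 1808). Only AS3h 3 lay inside its NC range, and its log2 fold change was 0.31 ± 0.061 (limma, adjusted p = 0.00588). Its relative Ybx1, the main mRNA packaging protein of the cytoplasm, was at 0.03 ± 0.057 (adjusted p = 0.784). Carhsp1 was at 0.17 ± 0.095 (adjusted p = 0.294), and Csdc2 at 0.00705 ± 0.063 (adjusted p = 0.965). Ybx2, Lin28b and Lin28a were at -0.24, -0.27 and -1.47 (adjusted p = 0.36, 0.725 and 0.167), Lin28a with only 36 reads over the 12 libraries. With the blood mean as a covariate Ybx3 was at 0.31 ± 0.079, the same size with a wider error (adjusted p = 0.054).

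Of 12 genes reported to act upstream of Rbm3 or Cirbp, 0 rose, 2 fell and 10 did not pass, with a median log2 fold change of -0.11 (4.22% of all genes tested fell). Clk1, a kinase of splicing factors whose activity falls with rising temperature in mammalian cells, had a lowest value of 4944 normalised reads, a median of 5945 and a highest of 6703 in NC. In AS3h it was at 2279, 3964 and 4448. The groups did not overlap, and AS3h 1 and AS3h 2, the highest libraries for Rbm3 and Cirbp, were the lowest for Clk1, at 2279 and 3184. Its log2 fold change was -0.70 ± 0.14 (limma, adjusted p = 0.00926). Hnrnph1, a splicing factor reported in human cells to keep a poison exon out of Rbm3 mRNA in the cold, was at 8104 to 9119 normalised reads in NC (median 8824) and at 6614 to 8021 in AS3h (median 7602). These groups did not overlap either (all 6 AS3h libraries lay below all 6 NC libraries in 2.04% of genes tested), and the log2 fold change was -0.23 ± 0.051 (adjusted p = 0.0124). With the blood mean as a covariate neither passed, Clk1 at -0.49 (adjusted p = 0.124) and Hnrnph1 at -0.23, as large as before but with a wider error (SE 0.067, adjusted p = 0.0875).

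The remaining regulators did not pass. The kinases Clk2, Clk3 and Clk4 were at log2 fold changes of -0.03, -0.19 and -0.15 (limma, adjusted p = 0.786, 0.0907 and 0.324). Srsf5, for a serine- and arginine-rich splicing factor, was at 0.12 ± 0.065 (adjusted p = 0.289), and Sp1 at -0.06 ± 0.079 (adjusted p = 0.703). Along the route by which the neurotrophin receptor TrkB induces RBM3 in cooled mouse neurons, the ligand gene Bdnf was at -0.32 ± 0.13 (adjusted p = 0.155), the receptor gene Ntrk2 at -0.0025 ± 0.067 (adjusted p = 0.988), Plcg1 at -0.06 ± 0.064 (adjusted p = 0.612) and Creb1 at -0.37 ± 0.16 (adjusted p = 0.176). Trpv4, a warmth-sensitive cation channel gene, ranged from 2.59 to 21.8 normalised reads in NC and from 2.63 to 139 in AS3h (log2 fold change 1.97 ± 0.78, adjusted p = 0.133). Its top value was in AS3h 5 (choroid plexus marker mean 10.34, log2). AS3h 2 followed at 81.0 normalised reads (marker mean 6.05). AS3h 1 was at 63.3 with a marker mean inside the NC range (4.17), and AS3h 4 at 23.6 (7.24). With the choroid plexus mean alone in the fit the log2 fold change was 1.32 (limma, adjusted p = 0.394). With the blood mean alone it was 1.70 (adjusted p = 0.406), and with both 0.20 (adjusted p = 0.957). The part of choroid plexus or blood in Trpv4 was not tested.

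None of the reported partners and targets passed. Of 12 listed genes 11 had a row and 10 were tested, and the median log2 fold change was -0.04. Over all genes tested 9.26% passed. Clock, whose mRNA CIRBP binds, was at -0.25 ± 0.22 (limma, adjusted p = 0.54), and Rtn3, an endoplasmic reticulum protein gene that RBM3 promotes in mouse brain, at 0.07 ± 0.046 (adjusted p = 0.351). The smallest p values belonged to Rpa2, for a single-stranded DNA binding subunit whose mRNA CIRBP binds (0.22 ± 0.076, adjusted p = 0.0831), and Prmt1, for an arginine methyltransferase that modifies CIRBP (0.14 ± 0.049, adjusted p = 0.1). In both, 5 of 6 AS3h libraries lay above every NC library, a count whose share over all genes tested was not taken. Txn1, Tnpo1, Gsk3b, Yap1, Atr and Tlr4 were between -0.16 and -0.0138, Ly96 was not analysed here, and Trem1, with 3 reads over the 12 libraries, was not tested.

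Of 22 rows for 21 genes of the heat shock response, which warming rather than cooling induces, 2 rose, 1 fell and 19 did not pass, and the median log2 fold change was -0.00712. These shares are close to those over all genes tested, of which 5.04% rose and 4.22% fell. Dnajb1, a co-chaperone of HSP70, was at 1881 to 2274 normalised reads in NC (median 2100) and 2333 to 2995 in AS3h (median 2647). Its groups did not overlap, as in Rbm3 and in 3.01% of all genes tested in this direction. The log2 fold change was 0.34 ± 0.065 (limma, adjusted p = 0.00502). Bag3, for another HSP70 partner, was at 0.47 ± 0.13 (adjusted p = 0.0284), but did not pass without NC 1, NC 2, AS3h 4, AS3h 5 or AS3h 6 (0.40 to 0.44, adjusted p up to 0.0702). Chordc1, for an HSP90 co-chaperone, was at -0.46 ± 0.11 (adjusted p = 0.0155). The inducible HSP70 genes Hspa1a and Hspa1b, near-identical copies whose reads may be shared, were at 0.79 ± 0.25 and 0.74 ± 0.24 (adjusted p = 0.0634 and 0.0675), each with 4 of 6 AS3h libraries above every NC library. AS3h 1 and AS3h 2, the highest libraries for Rbm3, were the lowest AS3h libraries for Hspa1a, at 197 and 202 normalised reads, and AS3h 3, the lowest AS3h library for Cirbp, was the highest, at 651. This order was not tested, and AS3h 1 and AS3h 2 also had the highest blood marker means. The small heat shock protein genes Cryab and Hspb1 were at 0.49 ± 0.16 and 0.63 ± 0.26 (adjusted p = 0.0655 and 0.145), and Hsp90ab1, for a constitutive HSP90, at 0.16 ± 0.053 (adjusted p = 0.0703, 5 of 6 AS3h libraries above every NC library). For counts of 4 or 5 of 6 libraries, the share over all genes tested was not taken. The other 14 rows, which include the factor genes Hsf1 and Hsf2, did not pass and were between -0.20 (Hspe1) and 0.03 (Hsph1). Without AS3h 4 and AS3h 5, 1 rose and 1 fell, Bag3 being at an adjusted p of 0.145. With both covariates 0 passed; with the blood mean alone Dnajb1, Hspa1a, Hspa1b and Cryab were past the threshold, at 0.39, 1.24, 1.13 and 0.73 on the log2 scale (adjusted p = 0.0244, 0.0258, 0.0366 and 0.0417).

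Genes that follow body temperature in mouse liver when the liver clock is stopped formed a list that shares members with the heat shock list. In it 2 genes rose, 0 fell and 7 rows did not pass, with a median log2 fold change of 0.03. Over all genes tested 5.04% rose and 4.22% fell. Per2, a negative-limb clock gene, was at 1363 to 1685 normalised reads in NC (median 1620) and 2362 to 2754 in AS3h (median 2532). Noct, for a rhythmic NADPH phosphatase, was at 883 to 1007 in NC (median 905) and 1118 to 1277 in AS3h (median 1165). Neither gene's groups overlapped (all 6 AS3h libraries lay above all 6 NC libraries in 3.01% of genes tested). The log2 fold changes were 0.68 ± 0.06 and 0.34 ± 0.056 (limma, adjusted p = 3.71e-05 and 0.00193). The 7 rows that did not pass were all chaperone genes, Hspa1b and Hsp90ab1 at the values above and Hsph1, Stip1, Hsp90aa1 and both Hspa8 rows between -0.09 and 0.03. Per2 passed with both covariates (0.69, adjusted p = 0.0198), and Noct did not (adjusted p = 0.233).

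Of 14 genes induced by hypoxia, 3 rose, 0 fell and 11 did not pass, with a median log2 fold change of 0.07; over all genes tested 5.04% rose and 4.22% fell. Pfkfb3, a glycolytic regulator, was at 2122 to 2814 normalised reads in NC and 2886 to 3862 in AS3h (log2 fold change 0.46 ± 0.08; limma, adjusted p = 0.00321). Ddit4, an inhibitor of the growth kinase mTORC1 that stress hormones also induce, was at 0.48 ± 0.12 (adjusted p = 0.027), and the low-count gene Adm, for the vasodilator adrenomedullin, at 0.72 ± 0.17 (adjusted p = 0.0153). In all 3 the AS3h libraries lay above every NC library, as in 3.01% of all genes tested. Vegfa, Bnip3, Egln3 and P4ha1 were at -0.11 to -0.17 and Ldha, Pdk1 and Slc2a1 at 0.06, -0.07 and 0.23, none of which passed (adjusted p = 0.197 to 0.694). Ddit4 did not pass without NC 4, AS3h 4 or AS3h 6 (0.45 to 0.49, adjusted p up to 0.0608). Without AS3h 4 and AS3h 5 only Pfkfb3 passed (0.46), with Adm at 0.67 and Ddit4 at 0.51 (adjusted p = 0.0709 and 0.0717). With both covariates none of the 14 passed, Pfkfb3 being at 0.49 ± 0.13, Adm at 0.45 and Ddit4 at 0.33 (adjusted p = 0.136, 0.457 and 0.478).

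**Figure D5:**
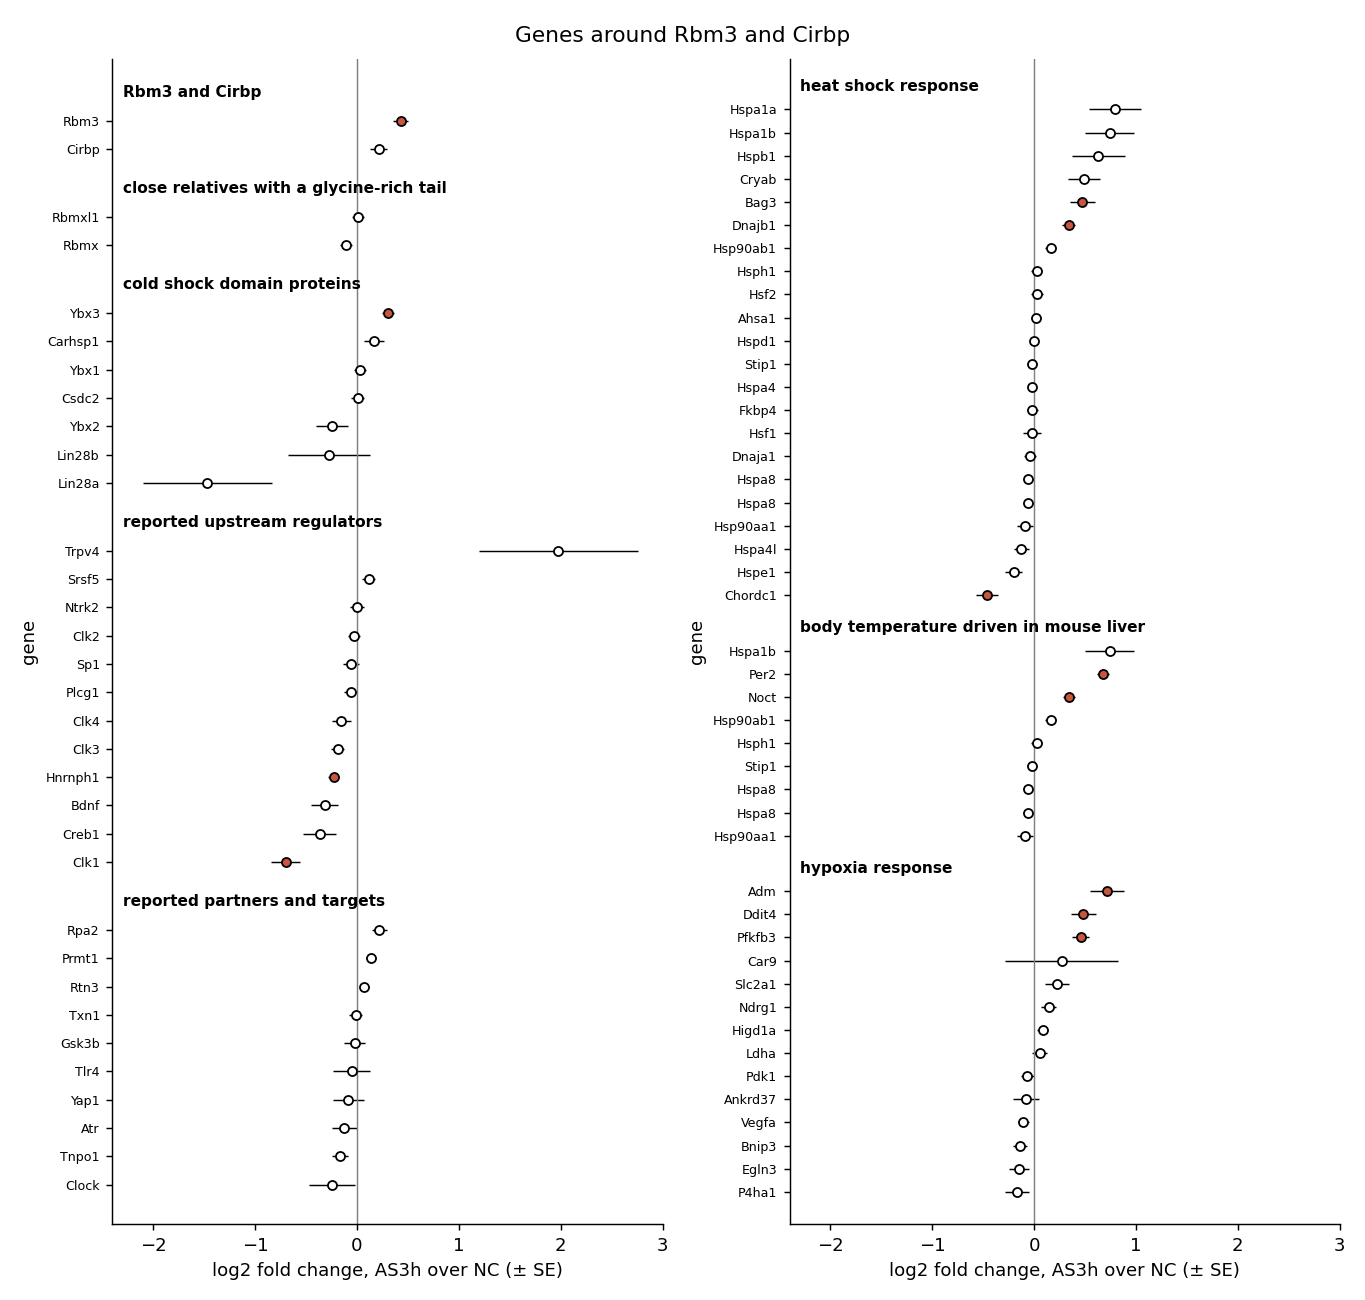
Log2 fold change (AS3h over NC, ± SE) of Rbm3, Cirbp and each tested member of the 7 gene lists, 1 row per gene row, with red points where the adjusted p was under 0.05. Red points lie only below 0 among the regulators (Clk1 and Hnrnph1) and on both sides of 0 among the heat shock genes (Chordc1 lower). In the cold shock domain, body temperature and hypoxia lists they lie only above 0.

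Among 12688 other genes with a mean of at least 100 normalised reads, those whose log2 values over the 12 libraries were most like Rbm3 were Eif4a3, for a helicase of the exon junction complex, Csrnp1, Zbtb2 and Insig1, for a sterol-regulated anchor protein of the endoplasmic reticulum, at Pearson r of 0.956, 0.946, 0.94 and 0.938. All 4 rose, from Eif4a3 at a log2 fold change of 0.23 ± 0.05 (limma, adjusted p = 0.0113) to Insig1 at 0.92 ± 0.085 (adjusted p = 4.72e-05). Cirbp ranked 828th in likeness to Rbm3, at 0.688. Most like Cirbp were Sp2, for a GC box binding factor, Pcif1, for an mRNA cap methyltransferase, Siah1, for a ubiquitin ligase, Sh2b3 and Relt, at 0.925, 0.907, 0.895, 0.882 and 0.87, of which Siah1 and Relt passed the test (log2 fold changes of 0.31 and 0.89). Rbm3 ranked 334th in likeness to Cirbp. These values share the group difference and the library factors.

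With the group means removed, the genes closest to Rbm3 were Zmat4, Pvt1, Rcn3 and Tmem268, at r of 0.921, 0.903, 0.892 and 0.891 over 12 libraries, with a row that carries only a clone name between the second and the third of these. None of them passed the test for AS3h against NC. Those closest to Cirbp were Klf11, Ppp1r15a, Relt, Sp2 and Apbb1ip, at 0.924, 0.898, 0.895, 0.884 and 0.868, and Relt and Sp2 were among the 5 by both measures. Both measures were taken on the same libraries, so this overlap is not independent. Ppp1r15a, for the stress-induced subunit that restores translation, was higher in AS3h at a log2 fold change of 0.68 ± 0.11 (limma, adjusted p = 0.00134). Rbm3 and Cirbp ranked 1369th and 1306th in likeness to each other, at 0.446.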

How the data were processed

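Values were the deposited log2 values of 12 rat hippocampus libraries, 1 file each. Strand-specific VAHTS libraries were made from HiPure-purified RNA, per the labels' protocols. FastQC 0.11.5, STAR and the build mRatBN7.2 appear, without roles, in the submitters' processing notes. The counter, strand setting and annotation were not given in the sources used here, so overlapping or near-identical genes may share reads. The deposited values fit log2(1 + reads/factor), with 1 factor per library (0.92 to 1.16), and 100% of values gave whole reads (within 0.02 read). At 29615243 to 38106489 reads per library, 3 reads were a CPM of 0.0787 to 0.101, a counting limit only.

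limma 3.58.1 in R 4.3.3 (robust, with trend) was fitted to the 19050 genes with a normalised value of at least 1 in at least 6 libraries, group only, with Benjamini-Hochberg adjustment over all of them. A fold change is on the log2(value + 1) scale, which understates changes of low genes. Values computed per library were tested by exact permutation, two-sided (scipy 1.17.1). The members, gene lists and alternatives were chosen with earlier results of these data known. In each of the 7 gene lists every member was counted, with values for those past the threshold and some others, chiefly by smallest p; the other list genes named were picked with their values in view. The genes most like each member were taken from the 5 with the highest Pearson r. Some genes are not reported here and are not in the list counts. Alternatives were limma-voom on the recovered reads, other filters, pseudocount, library factors, empirical Bayes settings, a replicate block, omitted libraries and marker covariates; the separate blood and choroid plexus covariates were added after seeing the data. The closest pair of libraries in a group had a chi-square over degrees of freedom of 11.4, above sampling noise, so all 12 were kept. The fit was tested on simulated data. Promoters came from RefSeq (GRCr8). Figures used matplotlib 3.10.9.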

Additional observations from a re-analysis of the deposited data

Results flagged for a closer look

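Among 56 groups of 6 libraries examined (Rbm3, Cirbp, their difference and 25 list genes, in NC and in AS3h), 3 held a library far from the others, and chance alone flags about 1 group in 20. Rbm3 in NC 4 was at 11.40 (log2), against 11.63 to 11.75 in the other 5 NC libraries. Without NC 4 the log2 fold change of Rbm3 was 0.38 (limma, adjusted p = 0.006), and Cirbp in NC 4 was at 10.51, inside its NC range of 10.37 to 10.62. Per2 in NC 3 was at 10.41, against 10.64 to 10.72 in the others. Ddit4 in NC 1 was at 11.09, against 11.75 to 11.95.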

How the results depend on the processing

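Rbm3 passed the threshold in 23 of 25 alternatives, and Cirbp in 1. The exceptions for Rbm3 were the blood mean alone (log2 fold change 0.33, limma adjusted p = 0.066) and the blood and choroid plexus means together (0.41, adjusted p = 0.142). Leaving out each library gave 0.38 to 0.46 for Rbm3 (adjusted p at most 0.00823), 0.15 to 0.28 for Cirbp, which passed without AS3h 3 only, and 0.16 to 0.27 for the difference between them. That difference was 0.26 without AS3h 4 and AS3h 5 (exact permutation p = 0.0571) and 0.18 between group medians (exact permutation p = 0.0758); the cause of these losses was not tested. The correlation of Rbm3 with Cirbp was 0.00299 in NC with total-read factors, and -0.79 in AS3h without the 2 libraries farthest from the Rbm3 median (n = 4, exact permutation p = 0.25). The count of genes past the threshold, 1764 as reported, was 1030 to 1788 when 1 library was left out (1030 without NC 2, 1109 without AS3h 4), 860 without AS3h 4 and AS3h 5, 1174 with the choroid plexus mean, 499 with the blood mean and 44 with both. Same-numbered NC and AS3h libraries deviated together with r of -0.03 to 0.1, and 0 of 6 matched their own number best. These correlations over many genes cannot exclude a pairing of the libraries. With the replicate block the count was 1296, and the heat shock list had 4 genes higher and 1 lower. Rbm3 was then at 0.43 ± 0.061 (limma, adjusted p = 0.00527) and Cirbp at 0.21 ± 0.061 (adjusted p = 0.0665). The difference between Rbm3 and Cirbp had an exact sign-flip p of 0.0312, the smallest that 6 pairs allow. Of the listed genes, Rbmxl1 changed sign, at -0.0144 to 0.0424 when each library was left out, -0.0320 without AS3h 4 and AS3h 5 and -0.0187 with the choroid plexus mean. Other library factors moved the median of all genes by less than 0.1 (log2). The planned quasi-likelihood test on recovered reads was not run.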

Other observations

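The genes that flank Rbm3 and Cirbp were looked up by name in the RefSeq table of GRCr8, in which 0 genes overlap either of them. On the X chromosome Rbm3 lies between Tbc1d25, a Rab GTPase-activating protein gene, and Wdr13, which had log2 fold changes of 0.10 ± 0.081 and -0.02 ± 0.058 (limma, adjusted p = 0.491 and 0.881). The next genes outward, Ebp, for a sterol isomerase, and Was, for an actin regulator of blood cells, were at -0.27 ± 0.10 and 0.29 ± 0.21 (adjusted p = 0.109 and 0.423). None of the 4 neighbours of Rbm3 passed. Beside Cirbp, Midn, for the proteasome adaptor midnolin, averaged 1477 normalised reads in the NC libraries and 1760 in those of AS3h (0.25 ± 0.08 on the log2 scale, adjusted p = 0.0602), and Efna2, for an ephrin, was at 0.10 ± 0.16 (adjusted p = 0.751). Fam174c and Atp5f1d, the other 2 neighbours of Cirbp, were not analysed here.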
